A study of Mus musculus with 3 samples.

Results

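The cells described here are C3(1)-Tag mouse mammary tumour cells cultured in collagen I, compared between day 3 and day 0. C3(1)-Tag mice carry the SV40 large T antigen under the C3(1) promoter, and tumours arise in the mammary epithelium. All collagen and Matrigel groups came from the same 4 FVB mice, which were 25 to 30 weeks old with a primary tumour of 20 mm, and the cells were at passage 0. Organoids in collagen I (day 0 and day 3) and clusters in Matrigel (day 0 and day 3) received the same DMEM/F12 medium with ITS, PS and 2.5 nM FGF2. Day 0 was harvested 12 h after plating. 4T1 cells, an established mouse mammary carcinoma line at passage 2, grew on plastic in RPMI-1640 with 10% FBS and were added to each day's pool. Collagen cultures were released with collagenase at 37 °C and Matrigel cultures with EDTA on ice, so the matrices also differ in how cells were freed. Every group used here carries the transgene or is a transformed line. The cell table names its first pool D1, and the labels name that pool day 0.

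Cells labelled collagen and D1 or D3 were kept when they had at least 5000 UMIs (unique molecular identifiers, 1 per captured RNA molecule) and at least 1 Epcam UMI. The rule kept 3128 of 3574 collagen cells of the 2 days, out of 7620 cells in the series. On day 0 it kept 710 of 1018 cells (69.7%) and on day 3 2418 of 2556 (94.6%). Mouse by mouse, 313, 155, 138 and 104 cells were kept on day 0, and 417, 1125, 763 and 113 on day 3. UMIs were summed per mouse and day, which gave 4 sums on each side. Levels are CPM, the UMIs of a gene scaled to a common total of UMIs in every sum. Epcam chose the cells and is not reported.

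Collagen I is the main fibrous protein of the stroma around mammary tumours, and tumour organoids embedded in it can extend strands of cells led by basal-like cells. Matrigel is a laminin-rich basement membrane extract in which mammary organoids tend to keep a rounded outline. Tissue dissociation itself is known to raise heat shock, immediate early and inflammatory transcripts for some hours, which makes an early time point a culture that has just been plated.

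The promoter sequences below belong to called genes of the interferon, antigen presentation and heat shock lists. Only promoters with a motif of the factors that interferon and heat stress are known to act through were eligible. Those with the smallest p in collagen were taken, so these promoters were chosen for holding the motif shown. They were read from the RefSeq promoter table (build GRCm38.p6), which covers 250 bases before to 50 bases after a gene start. RefSeq promoters were matched by symbol for 16 of 21 tested interferon genes, 9 of 13 heat shock genes and 9577 of 12424 genes tested. Each sequence is 100 bases, written 5′ to 3′ on the strand of the gene. In the first 4, capitals mark the core of the interferon-stimulated response element (GAAA, any 2 bases, GAAA) or its reverse complement, and in the last they mark GAANNTTC, the core of the heat shock element.
Cxcl10: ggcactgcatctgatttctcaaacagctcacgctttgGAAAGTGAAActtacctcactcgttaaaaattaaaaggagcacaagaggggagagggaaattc
Bst2: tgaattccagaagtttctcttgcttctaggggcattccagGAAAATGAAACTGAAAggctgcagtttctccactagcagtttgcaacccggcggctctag
Ifit3: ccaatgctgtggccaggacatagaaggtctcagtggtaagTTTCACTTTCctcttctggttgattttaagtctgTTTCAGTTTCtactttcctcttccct
Rsad2: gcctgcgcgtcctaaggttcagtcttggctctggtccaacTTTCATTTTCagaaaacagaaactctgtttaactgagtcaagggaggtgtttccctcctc
Hspa1a: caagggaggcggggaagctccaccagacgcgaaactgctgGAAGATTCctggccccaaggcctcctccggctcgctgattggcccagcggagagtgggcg

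The windows lie at chr5:92349040-92349139 on the minus strand for Cxcl10, chr8:71537543-71537642 on the minus strand for Bst2 and chr19:34583333-34583432 on the plus strand for Ifit3. They lie at chr12:26456513-26456612 on the minus strand for Rsad2 and chr17:34972201-34972300 on the minus strand for Hspa1a. The same 100 bases stand before the neighbouring copy Hspa1b, at chr17:34959283-34959382 on the minus strand. All are upstream of the annotated gene start. On both strands, the interferon motif was present in 10 of the 16 promoters of the interferon list (62.5%), against 3.82% of the promoters of all genes tested. Bst2 holds 2 copies that overlap and Ifit3 holds 2 that do not. The heat shock motif was present in 8 of 9 promoters of the heat shock list (88.9%), against 6.82% for all genes tested. A match of letters is a description of the sequence and does not show that a factor was bound.

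The collagen sums held 2171559 to 7631800 UMIs on day 0 and 3146085 to 46142333 on day 3, and kept cells had a median of 20268 UMIs on day 0 and 36782 on day 3. In mouse 4 only 44.1% of day 0 cells were kept, and its median over all day 0 collagen cells was 4377.5 UMIs. No barcode was shared between kept collagen cells of the 2 days, and 7 were shared between the 2 pools as a whole. Cells fell into clusters, and 23 kept collagen cells of day 0 lay in the cluster that holds the 4T1 cells, against 11 on day 3. These 23 cells were 3.24% of the day 0 cells but gave 11.3% of their UMIs (median 87610 per cell), 69.1% of their Vim UMIs and 66.7% of their S100a4 UMIs. On day 3 the cluster held 0.455% of kept cells and gave 1.12% of UMIs and 2.5% of Vim UMIs. In these collagen cells of the 4T1 cluster, Vim was at 4362 CPM on day 0 and 1329 CPM on day 3. S100a4 was at 621.5 and 53.9 CPM. The labels thus put cells that cluster with the 4T1 line into the mouse groups. What these cells are was not tested. Results that turn on them are given with and without that cluster. Macrophage-like clusters held 11 kept collagen cells on day 0 and 8 on day 3, and fibroblast-like clusters held 0 and 16. "Without 4T1 and non-epithelial clusters" below means that all of these cells were left out.

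Keratin, cadherin and claudin markers checked the epithelial label. Their summed level was 4028 to 5362 CPM on day 0 and 4292 to 5758 CPM on day 3. The 10 macrophage markers summed to 23.5 to 154 CPM on day 0 and 9.67 to 108 CPM on day 3, and 3 of them, Adgre1, C1qc and Fcgr3, were at 0 in mouse 4 on both days. The 8 fibroblast markers summed to 9.33 to 15.5 CPM and 9.35 to 108 CPM, with Dpt at 0 in all 4 day 0 sums. Of all markers of other cell types that could be tested, Col1a1 was the 1 that rose and Ccr7 the 1 that fell.

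Day 3 was compared with day 0 over 12424 genes with edgeR's quasi-likelihood test, and a gene is called when its Benjamini-Hochberg adjusted p was under 0.05. In collagen 1154 genes were called higher on day 3 (9.29%) and 999 lower (8.04%), 17.3% in all. The 4 day 3 sums all lay above the 4 day 0 sums for 12.3% of genes and all below for 11.1%. With the mouse as a block, which is the paired fit since the same 4 animals gave both days, 2529 genes were higher (20.4%) and 2211 lower (17.8%), 38.2% in all. Scaling by total counts alone moved the median log2 change of all genes from 0.02 to -0.16 and the split to 725 higher and 1825 lower. Leaving out mouse 1, 2 or 3 left 571, 496 or 630 higher calls and 423, 313 or 581 lower calls. Fits that left out a mouse, here and below, had no mouse block. All 69 called genes followed through the alternatives were called again with the block. List counts below are read against these shares, and blocked counts against 20.4% and 17.8%.

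Day and pool are the same thing in this design, because all cells of a day were processed together. 4T1 cells of the same pools show which changes were also present outside the mouse cells. They were 97 cells on day 0 and 184 on day 3, and as 1 sample a day they allow no test. Of the 2153 called genes, 518 (24.1%) had a 4T1 change of the same sign and at least 0.5 of its size on the log2(CPM + 5) scale. The share was 18.9% among genes called higher and 30.0% among those called lower, and 33.5% among genes not called. The size condition is easier to meet where the collagen change is near 0. The share of genes not called is therefore no baseline for the called genes. The 4T1 cells were also grown on plastic in other medium, so a 4T1 change can come from the pool or from the line's own culture, and the 2 cannot be told apart.

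Several of the genes with the clearest changes also moved in 4T1 cells. Nme2, a nucleoside diphosphate kinase at chr11:93949814-93956259, was at 9.10, 8.51, 10.9 and 12.0 CPM on day 0 and 550.4, 479.7, 433 and 313 CPM on day 3. Its log2 change was 5.47 ± 0.31 (SE) in collagen and 5.62 in Matrigel, and it was 4.87 in 4T1 cells. Bloc1s1 and Grcc10 changed by 4.17 and 3.82 in collagen and by 2.38 and 2.82 in 4T1 cells. The cell cycle gene Cdk2ap1 changed by -3.12 in collagen and -2.62 in 4T1 cells, and Wdr74 by -3.52 and -1.84. In all these genes the 2 days did not overlap in collagen. Nme2 shares exon sequence with Gm20390 in the annotation, and exon overlap was present for 11.7% of called genes that changed over 4-fold, against 4.25% of genes not called. The named-gene rule took 12 genes in each direction, and 5 of the 12 highest and 3 of the 12 lowest moved in 4T1 cells by this measure. Hist1h2ap, a histone H2A gene, went from 39.2 to 63.5 CPM on day 0 to 1282 to 1632 CPM on day 3, while its 4T1 log2 change was 1.95 against 4.82 in collagen. Of 83 ribosomal protein genes 14 rose and 4 fell, with 39 and 9 under the mouse block and 66 of 83 positive in 4T1 cells. Leaving out mouse 1, 2 or 3 left 6, 5 or 9 of them called higher, and leaving out mouse 4 gave 24.

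**Figure D1:**
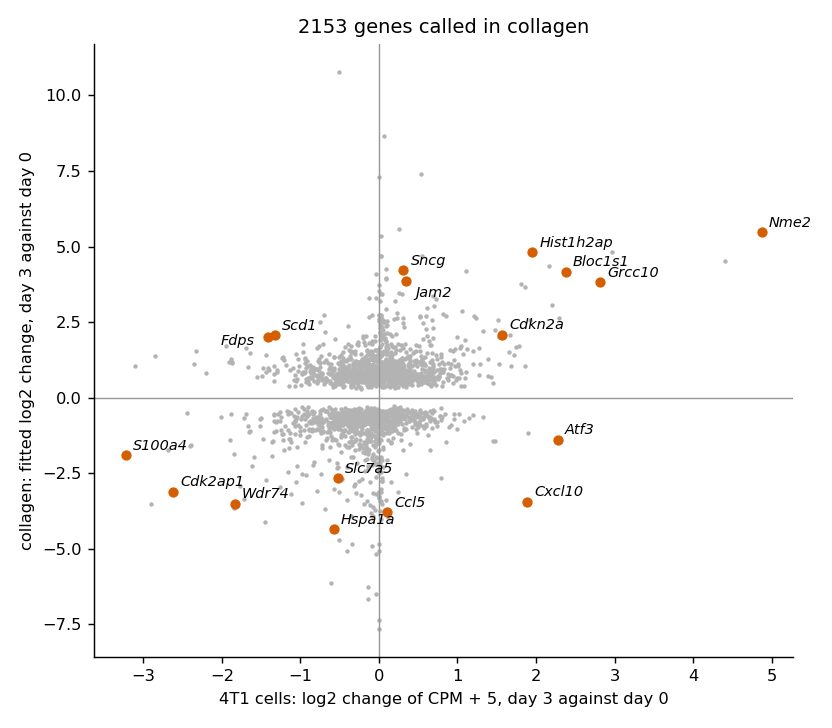
Change from day 0 to day 3 of the 2153 called genes in 4T1 cells of the same pools (horizontal axis, log2 of CPM + 5, no replicates) and in collagen (vertical axis, fitted log2 change over 4 mice), with some named genes in orange. Nme2 lies far up on the right (4.87 in 4T1 cells, 5.47 in collagen), and Fdps and Scd1 lie at negative 4T1 values and positive collagen values.

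Lipid synthesis genes were higher after 3 days in collagen. Of the 20 cholesterol synthesis genes tested, 15 rose and none fell, and of the 10 fatty acid synthesis genes 8 rose and none fell. All 20 and all 10 had a negative change in 4T1 cells, with medians of -1.43 and -1.28, against 0.91 and 0.97 in collagen and 0.02 over all genes in collagen. SREBP factors are known to switch on both sets when membrane sterol is low. Leaving out 1 mouse at a time left 11 to 17 cholesterol genes called and 5 to 8 fatty acid genes, with 5 without mouse 1.

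In the mevalonate part of the pathway, Mvk, which phosphorylates mevalonate, rose by 1.25 ± 0.21 (adjusted p = 0.000795), and Pmvk, which acts next, rose by 1.71 ± 0.19 (adjusted p = 2.76e-05). Fdps, which makes farnesyl diphosphate (chr3:89093588-89101959), had 126, 146, 127 and 193 CPM on day 0 and 594, 635, 585 and 540 CPM on day 3. No day 3 sum of these genes overlapped a day 0 sum. The change of Fdps was 1.99 ± 0.17 (adjusted p = 2.47e-06), and between 1.90 and 2.15 when any mouse was left out, while 4T1 cells went from 305 to 112 CPM. Nsdhl, a sterol dehydrogenase of the late steps, rose by 1.43 ± 0.22 (adjusted p = 0.000423).

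Among fatty acid genes, the desaturase Scd1 had 18.0, 24.2, 16.9 and 27.5 CPM on day 0 and 110, 81.0, 91.7 and 77.4 CPM on day 3, a log2 change of 2.07 ± 0.31 (adjusted p = 0.000324). Fads2, a desaturase of polyunsaturated fatty acids, went from 0.824 to 2.57 CPM on day 0 to 7.51 to 11.4 CPM on day 3 (2.72 ± 0.36, adjusted p = 0.000134). Fasn, the fatty acid synthase, went from 30.1 to 54.5 CPM to 63.6 to 94.4 CPM (1.01 ± 0.21, adjusted p = 0.00349). Again all 4 mice were higher on day 3. The SREBP motif TCACNCCAC was found in 1 of the 14 matched cholesterol promoters (7.14%) and in 1.35% of those of all genes tested.

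**Figure D2:**
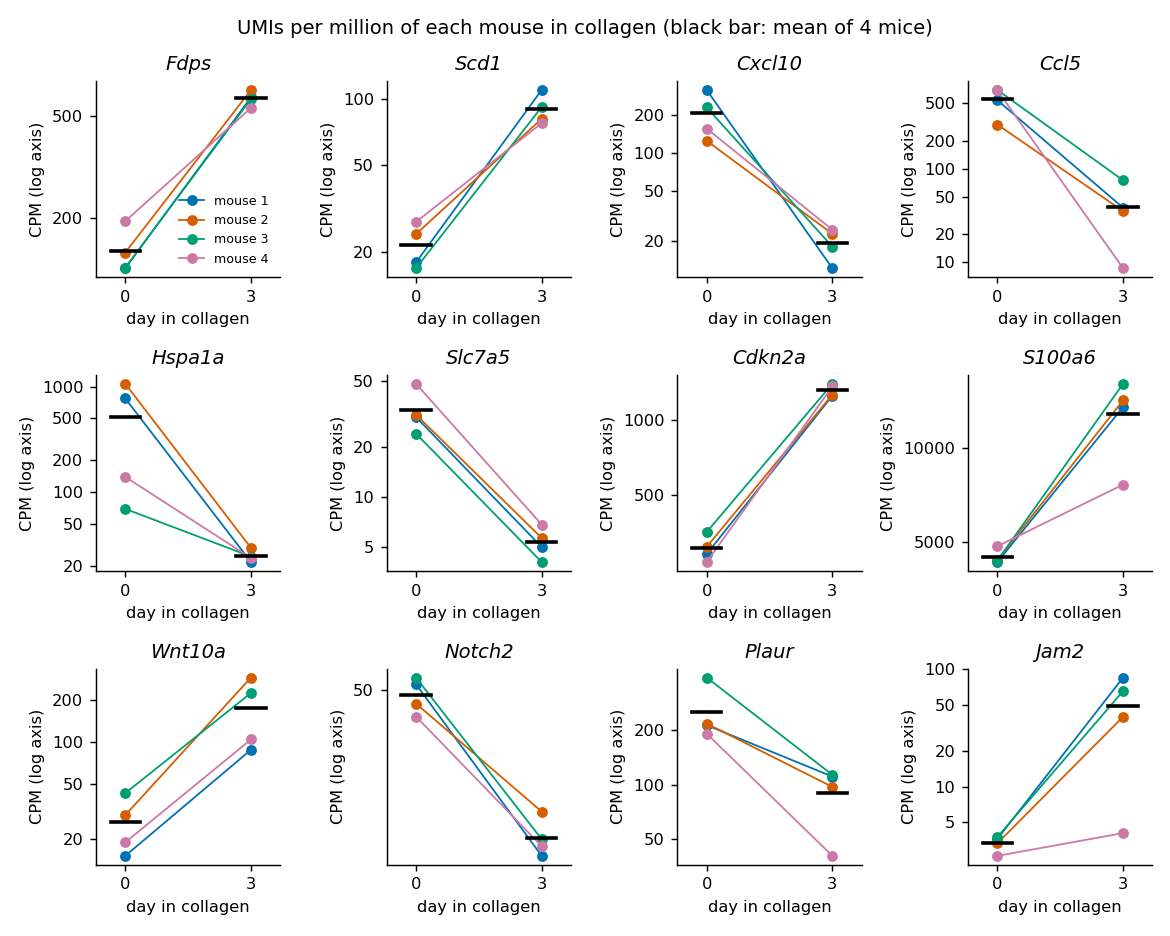
CPM of 12 genes in collagen on day 0 and day 3 (log axes), with 1 coloured line per mouse and a black bar for the mean of the 4 mice. All 4 lines go the same way within each panel and no panel has overlapping days, with Jam2 at 3.72 CPM at most on day 0 and 4.02 CPM at least on day 3.

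Interferon response genes were lower on day 3 in collagen. Of 21 tested, 6 fell and none rose, with a median log2 change of -0.88, and with the mouse block 14 fell and 1 rose. Leaving out mouse 1, 2 or 3 left 2, 3 or 3 calls, and Cxcl10 was the member called in each such fit. Without 4T1 and non-epithelial clusters 6 were again called. The macrophage markers given above, whose summed level was 23.5 to 154 CPM on day 0 and 9.67 to 108 CPM on day 3, overlapped between days. The summed level of the 4 dendritic cell markers also overlapped but was lower on day 3 in every mouse. It was 9.17, 11.8, 12.0 and 0.460 CPM on day 0 and 0.787, 0.325, 0.214 and 0 CPM on day 3. Only 1 of the 4, Ccr7, could be tested, and others were at 0 in some day 0 sums. No dendritic marker was called without 4T1 and non-epithelial clusters. The part of dendritic cells in the fall was not tested.

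Cxcl10, a chemokine that draws T cells (chr5:92346638-92348889), had 318, 125, 231 and 157 CPM on day 0 and 12.1, 22.7, 17.9 and 24.5 CPM on day 3. Every day 0 sum was above every day 3 sum, and the log2 change was -3.45 ± 0.64 (adjusted p = 0.00173), with 4T1 cells going the other way (5.95 to 35.6 CPM). Bst2, the tetherin that holds budding virus at the membrane, had 484, 321, 382 and 325 CPM and then 198, 185, 118 and 113 CPM (-1.30 ± 0.32, adjusted p = 0.00993). Rsad2, an antiviral enzyme, had 65.1, 12.6, 14.9 and 18.0 CPM and then 1.39, 6.77, 2.14 and 1.24 CPM (-3.15 ± 0.82, adjusted p = 0.0149). Ifit3, which is part of the complex that binds viral RNA, changed by -3.11 ± 0.76 (adjusted p = 0.0104), and Oasl2, a member of the oligoadenylate synthetase family, by -1.52 ± 0.43 (adjusted p = 0.0236). The call was lost without mouse 2 or mouse 3 for Bst2 (adjusted p up to 0.0882), without mouse 1 for Ifit3 (0.104) and Rsad2 (0.156), and without mouse 1, 2 or 3 for Oasl2 (up to 0.14). With limma on cell means the adjusted p was 0.153 for Bst2 and 0.0667 for Oasl2. With the mouse block Bst2 changed by -1.33 (adjusted p = 3.49e-05).

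Of 12 antigen presentation genes 1 was called, and with the mouse block 2 rose and 3 fell. Tap2, a subunit of the peptide transporter, had 64.9, 64.8, 61.6 and 39.9 CPM and then 34.3, 33.2, 30.6 and 24.1 CPM (-0.91 ± 0.21, adjusted p = 0.00773), and lost the call without mouse 2 or 3 (adjusted p up to 0.0891) and at 5000 UMIs a cell (0.121). The immunoproteasome subunits Psmb8 and Psmb9 had changes of 0.47 and -0.33 in the unblocked fit, neither called, and Psmb8 was called with the mouse block (0.48, adjusted p = 0.00508). Ccl5, a chemokine for T cells, had 542, 298, 698 and 692 CPM on day 0 and 38.5, 35.3, 75.4 and 8.67 CPM on day 3. The change of -3.79 ± 0.67 (adjusted p = 0.00125) was called in each fit that left out 1 mouse. Ccl5 was also among the leading genes of the macrophage-like cluster. Without 4T1 and non-epithelial clusters it had 358, 123, 493 and 900 CPM and then 30.8, 29.0, 75.5 and 8.63 CPM (-3.67, adjusted p = 0.00322). Of 17 chemokines and cytokines Ccl5 was the 1 called, and with the mouse block 3 were lower and 1 higher. Il1b, a cytokine of myeloid cells, was at 60.8, 1.65, 21.8 and 0.429 CPM on day 0 and at 0 to 0.464 CPM on day 3 (-6.26 ± 1.66, adjusted p = 0.0161). The 2 days overlapped, 2 mice hold most of its day 0 signal, the call was lost without mouse 2 or 3 (up to 0.0921) and with limma on cell means (0.287), and the gene was below the count filter without 4T1 and non-epithelial clusters.

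Of 13 heat shock chaperones 4 fell, with 2 called without mouse 1 or without mouse 2. Hspa1a, the inducible Hsp70, had 774, 1066, 69.6 and 140 CPM on day 0 and 21.8, 29.7, 24.6 and 23.8 CPM on day 3 (-4.36 ± 0.75, adjusted p = 0.0011). Its near-identical copy Hspa1b had 534, 853, 127 and 205 CPM and then 49.0, 78.6, 68.9 and 64.4 CPM (-2.72 ± 0.50, adjusted p = 0.00158). Mice 1 and 2 had day 0 levels several times those of mice 3 and 4, while day 3 was even. The 2 copies share sequence, so reads could be split between them in counting and each value is uncertain. With limma on cell means the adjusted p of Hspa1b was 0.11. In 4T1 cells Hspa1b went from 19.8 to 4.20 CPM.

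Of 21 immediate early genes 4 fell and 1, Jund, rose, and with the mouse block 8 fell and 3 rose. Jund was not called without mouse 1, 2 or 3, or without 4T1 and non-epithelial clusters. Atf3, a stress-induced transcription factor, had 95.2, 99.1, 90.5 and 67.8 CPM on day 0 and 27.7, 30.0, 45.0 and 31.9 CPM on day 3 (-1.39 ± 0.19, adjusted p = 0.00018), and was at 33.8 and then 183 CPM in 4T1 cells. Myc had 126, 99.1, 105 and 86.2 CPM and then 48.9, 41.8, 54.9 and 46.4 CPM (-1.12 ± 0.17, adjusted p = 0.000393). Maff, a small Maf factor, changed by -0.88 ± 0.19 (adjusted p = 0.0043). Dusp1, a phosphatase that switches off MAP kinases, changed by -1.24 ± 0.29 (adjusted p = 0.00828), and lost the call without mouse 2 (0.111). With limma on cell means the adjusted p was 0.0807 for Atf3 and 0.0573 for Maff.

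More amino acid stress genes fell than rose, and glycolysis genes went in both directions. In the list of ATF4 targets and amino acid genes, 6 of 16 fell and 1, Phgdh, rose, with a median log2 change of -0.61, and with the mouse block 9 fell and 1 rose. However, leaving out mouse 1, 2 or 3 left 1 lower call, Slc7a5, and 3 fell without 4T1 and non-epithelial clusters. Slc7a5, the transporter of large neutral amino acids (chr8:121881150-121907694), had 30.3, 31.3, 24.1 and 48.0 CPM on day 0 and 4.99, 5.66, 4.05 and 6.81 CPM on day 3 (-2.66 ± 0.24, adjusted p = 3.06e-06), with no overlap. Hk2, a hexokinase that takes glucose into glycolysis, had 17.6, 19.5, 25.8 and 25.3 CPM and then 5.97, 2.23, 4.16 and 3.71 CPM (-2.45 ± 0.35, adjusted p = 0.000263). Hk1, Eno1 and Pkm rose among 25 glycolysis and hypoxia genes, Hk2 and Vegfa fell, and with the mouse block 8 rose and 4 fell. Gsr, glutathione reductase, was the 1 of 15 NRF2 antioxidant genes called (-0.81 ± 0.15, adjusted p = 0.00151), and 4 fell with the mouse block. With limma on cell means its adjusted p was 0.0553.

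**Figure D3:**
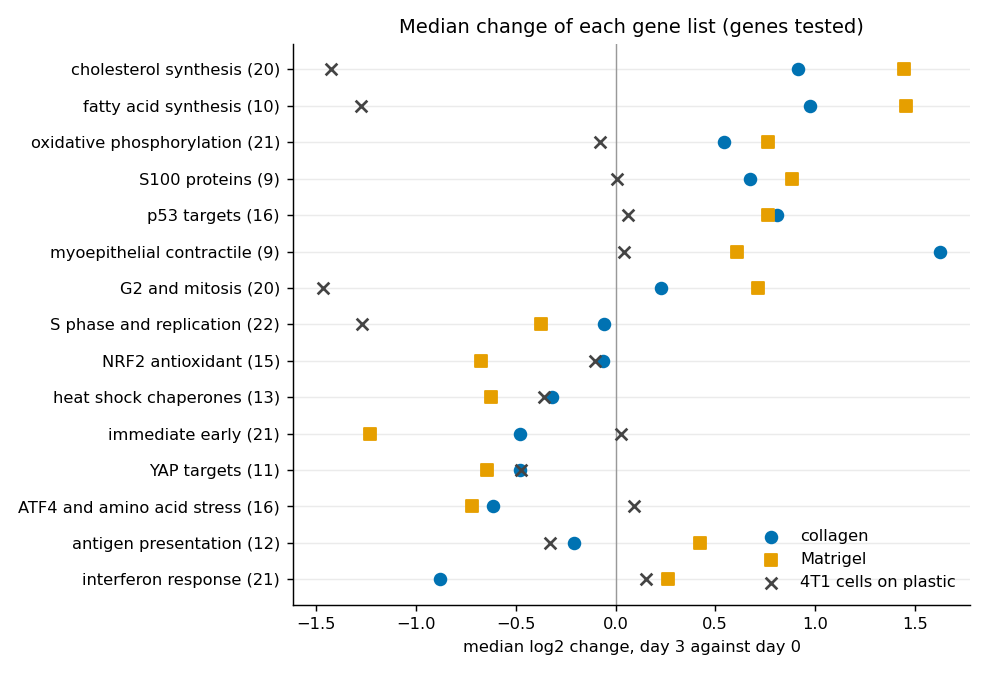
Median log2 change from day 0 to day 3 of 15 gene lists, with the number of genes tested in brackets, in collagen (blue circles), Matrigel (orange squares) and 4T1 cells of the same pools (grey crosses, no replicates). Cholesterol synthesis lies at 0.91 in collagen and -1.43 in 4T1 cells, and the interferon list at -0.88 in collagen and 0.26 in Matrigel.

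Of 16 targets of p53, 5 rose and 1 fell, with 10 higher under the mouse block and 4 higher without 4T1 and non-epithelial clusters. Large T antigen is known to bind p53, so the list is used here only as a set of named genes. Phlda3, an inhibitor of AKT at the membrane, had 174, 147, 136 and 125 CPM on day 0 and 330, 413, 489 and 309 CPM on day 3 (1.4 ± 0.21, adjusted p = 0.000411). Ccng1 rose by 1.38 ± 0.23 (adjusted p = 0.000753) and the pro-apoptotic Bax by 1.10 ± 0.20 (adjusted p = 0.00153). Zmat3, an RNA-binding protein, went from 4.87 to 14.4 CPM to 20.4 to 32.2 CPM (1.37 ± 0.31, adjusted p = 0.00593), and lost the call without mouse 2 (0.0584). Plk2, a polo-like kinase, went the other way (-0.70 ± 0.19, adjusted p = 0.018), and lost it without mouse 1, 2 or 3 (up to 0.171). The cyclin-dependent kinase inhibitor Cdkn1a had 269, 271, 510 and 287 CPM and then 409, 661, 1003 and 565 CPM (0.98 ± 0.34), was not called without the block (adjusted p = 0.0593), and was called with it (0.94, adjusted p = 0.0108).

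Cdkn2a (chr4:89274471-89294653), which encodes p16 and p19Arf and is known to be high where the retinoblastoma pathway is inactive, was added to the named genes after its values were seen. Its sums were 292, 312, 357 and 272 CPM on day 0 and 1245, 1257, 1388 and 1355 CPM on day 3. The log2 change was 2.09 ± 0.18 (adjusted p = 1.66e-06), and between 1.99 and 2.12 without any 1 mouse. Matrigel gave 1.88. The 4T1 cells gave 1.57, from 13 to 195 UMIs, which is 1.61 and then 14.6 CPM. These levels are far below those of the collagen sums, and the source of these UMIs was not tested.

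G2 and mitosis genes were not called in the unblocked fit over all kept cells, and S phase genes went in both directions. None of 20 G2 and mitosis genes was called in collagen by edgeR, with 1 at an unadjusted p under 0.05 and a median log2 change of 0.23. DESeq2 called 0 of them, limma 1 and edgeR with the mouse block 1. Without 4T1 and non-epithelial clusters 1 was called higher, the cyclin Ccnb2 (1.28, adjusted p = 0.0153). Of 22 S phase genes 2 rose and 3 fell, with the mouse block 6 rose and 7 fell, and 6 fell without 4T1 and non-epithelial clusters. The proliferation marker Mki67 had 112, 110, 110 and 129 CPM on day 0 and 103, 135, 162 and 147 CPM on day 3 (0.25 ± 0.22, adjusted p = 0.485), overlapping between days. In 4T1 cells all 20 G2 and mitosis genes and all 22 S phase genes had a negative change, with medians of -1.47 and -1.27.

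Oxidative phosphorylation genes and the called genes of the S100 list were higher. Of 21 subunits of the respiratory chain 12 rose and none fell, with 8 called in every fit that left out 1 mouse, and their median was 0.54 in collagen and -0.08 in 4T1 cells. Ndufa13, a complex I subunit, had 238, 220, 182 and 284 CPM and then 554, 539, 496 and 664 CPM (1.29 ± 0.16, adjusted p = 8.54e-05). Cox7a2, a subunit of cytochrome c oxidase, changed by 1.04 ± 0.14 (adjusted p = 0.00018). Of the 9 genes in the list of S100 calcium-binding proteins 5 rose and none fell. S100a4 was counted in the mesenchymal list and not among these 9. It was called lower over all kept cells, but not without 4T1 and non-epithelial clusters (-0.14, adjusted p = 0.816). S100a6 (chr3:90612882-90624181) had 4312, 4379, 4360 and 4848 CPM on day 0 and 13523, 14218, 16058 and 7636 CPM on day 3 (1.52 ± 0.24, adjusted p = 0.000639), and 8883 and 8921 CPM in 4T1 cells. S100a13, S100a11 and S100a10 rose by 1.23, 0.81 and 0.68 (adjusted p = 4.64e-05, 0.000838 and 0.000688). Mouse 4 was lowest of the day 3 sums for S100a6.

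Of the genes for epithelial identity few were called without the block. No EMT transcription factor (7 tested), epithelial gatekeeper (7) or simple keratin (4) was called by edgeR or by DESeq2, and 1, 0 and 0 of them had an unadjusted p under 0.05. Limma called 1 EMT factor and the mouse block 2, both higher, and the median log2 change of the EMT list was 1.13. Of 18 epithelial junction genes 1 rose, and with the mouse block 4 rose and 3 fell. Krt14, the basal keratin of leader cells (chr11:100203162-100207548), had 1007, 794, 492 and 898 CPM on day 0 and 1331, 1803, 1331 and 1306 CPM on day 3. It was higher in all 4 mice, by 0.85 ± 0.26 (adjusted p = 0.0359), but the call was lost without mouse 1, 2 or 3 (up to 0.171) and without 4T1 and non-epithelial clusters (0.66, adjusted p = 0.119). The tight junction protein Cldn3 rose by 1.10 ± 0.31 (adjusted p = 0.0238), and lost it without mouse 1, 2 or 3 (up to 0.125) or without the 4T1 cluster alone (0.0509). Both calls were also lost when scaling by total counts (0.0765 and 0.0706). With the mouse block Cldn3 was called (1.10, adjusted p = 0.000153). With the block and without 4T1 and non-epithelial clusters, Cldn3 was called (adjusted p = 0.000346) and Krt14 was not (0.062). The luminal keratin Krt8 had 984, 885, 852 and 530 CPM and then 1190, 1102, 1319 and 465 CPM (adjusted p = 0.54), and Krt5 had 150, 186, 9.45 and 85.8 CPM and then 213, 275, 45.2 and 127 CPM (adjusted p = 0.65). The adhesion molecule Cdh1 had a change of -0.57 ± 0.28 (adjusted p = 0.183), and was called lower with the mouse block (-0.60, adjusted p = 0.000905).

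Vim, the mesenchymal intermediate filament (chr2:13573927-13582826), had 595, 725, 361 and 1254 CPM on day 0 and 1223, 653, 240 and 418 CPM on day 3. Over all kept cells the mean was 734 ± 378 CPM on day 0 and 634 ± 428 CPM on day 3 (SD, n = 4), and the log2 change was -0.21 ± 0.45 (adjusted p = 0.803). Without 4T1 and non-epithelial clusters the levels were 258, 89.2, 129 and 84.0 CPM and then 1212, 596, 221 and 406 CPM. Vim then rose by 2.11 (adjusted p = 0.00759), higher in 4 of 4 mice, and by 2.03 with the block (adjusted p = 0.00223). Leaving out the 4T1 cluster alone gave 1.73 (adjusted p = 0.0185), thinning every cell to 5000 UMIs gave 1.26 (adjusted p = 0.0251), and leaving out mouse 4 from all kept cells gave 0.30. Vim was among the genes from which the clusters were built, so the cells left out were partly chosen on its level. The sign of the Vim change in collagen thus differed between these ways of counting. The change of S100a4, another mesenchymal marker, was -1.91 over all kept cells (adjusted p = 0.00264) and -0.14 without these clusters (adjusted p = 0.816). Without 4T1 and non-epithelial clusters Vim also rose in Matrigel (1.37, adjusted p = 0.0352).

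**Figure D4:**
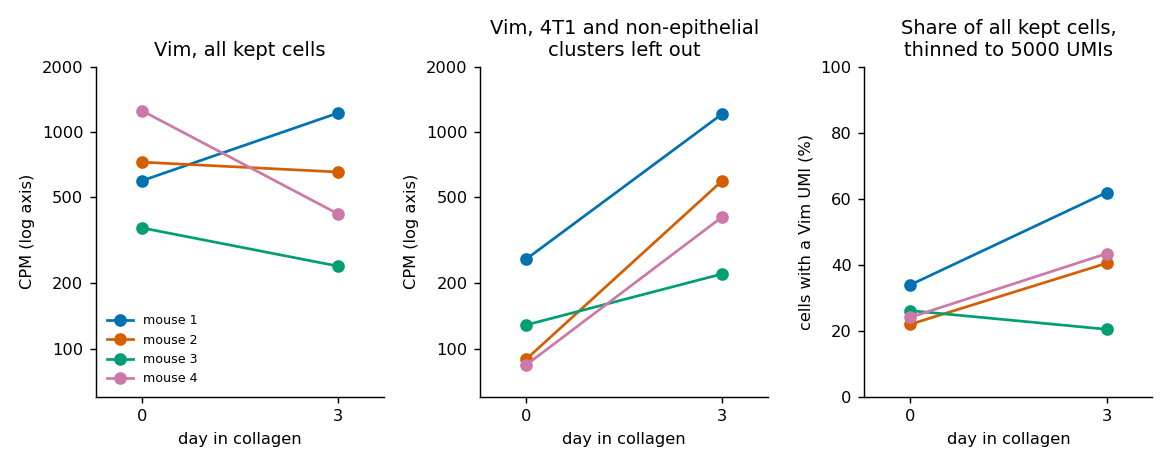
Vim in collagen on day 0 and day 3, with 1 line per mouse, as CPM over all kept cells (left, log axis), as CPM without cells in the 4T1 and non-epithelial clusters (middle, log axis), and as the share of all kept cells with a Vim UMI at 5000 UMIs a cell (right). The mean over all kept cells goes from 734 to 634 CPM, while all 4 mice are higher on day 3 in the middle panel and 3 of 4 in the right one.

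Shares of cells were compared after thinning each kept cell to 5000 UMIs, because depth differed between days, and none had to be left out. With 4 mice on each side the smallest 2-sided exact permutation p is 0.0286, and 6 genes were tested. This test did not use the pairing of the days by mouse. A paired sign-flip test on 4 differences cannot give a p below 0.125. Cells with a Vim UMI were 26.5% ± 5.2 on day 0 and 41.5% ± 17.0 on day 3 (SD, n = 4), higher in 3 of 4 mice (exact permutation p = 0.143, adjusted p = 0.257). Unthinned, they were 45.7% and 62.4%. Cells with a Krt14 UMI were 66.8% ± 8.1 and 79.8% ± 9.0, higher in 4 of 4 mice (exact permutation p = 0.114, adjusted p = 0.257). Unthinned, they were 80.7% and 95.6% (exact permutation p = 0.0286). Krt5 was in 6.96% and 11.3% of cells, Krt8 in 79.7% and 83.0%, Mki67 in 27.2% and 31.7%, and the topoisomerase Top2a in 48.3% and 41.9%, with exact permutation p between 0.0571 and 0.571. Unthinned, Top2a was 69% and 69.7%, the opposite direction. Macrophage-like cells of the 2 days, 191 with a median of 15090 UMIs, had a Krt14 UMI in 7.33% and a Krt5 UMI in 1.05%, which serve as the background for those genes.

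Contractile and matrix genes included a gene near 0 on day 0. Of 9 myoepithelial contractile genes 2 rose, Actg2 and Cnn1, with a list median of 1.63, and 7 rose with the mouse block. At 5000 UMIs a cell none of the list was called, since Actg2 and Cnn1 fell under the count filter. Actg2, a smooth muscle actin (chr6:83512905-83536265), was at 0.239, 0.275, 0.286 and 0 CPM on day 0 and 3.6, 10.1, 2.49 and 8.05 CPM on day 3. That is 4 UMIs of all day 0 sums against 595, a ratio of 25.5 (95% counting interval 9.91 to 93.9, counting error only), while Matrigel had 12 UMIs and then 3. Cnn1, calponin, had 2.99, 3.29, 0.286 and 0.429 CPM and then 10.6, 20.6, 3.89 and 9.60 CPM (2.54 ± 0.70, adjusted p = 0.0194), and lost the call without mouse 1 or 2 (up to 0.12). Acta2, the smooth muscle actin most used as a myoepithelial marker, was at 84.8, 56.8, 0 and 0 CPM on day 0 and 187, 356, 56.7 and 43.3 CPM on day 3 (adjusted p = 0.208, and 0.00347 with the block), and was named after its values were seen. Myofibroblasts also express Acta2, and fibroblast marker sums were 9.33 to 15.5 CPM on day 0 and 9.35 to 108 CPM on day 3. Their part in these changes was not tested beyond the fit without those clusters, in which Actg2 and Cnn1 were again the 2 called.

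Tmsb10, an actin-binding thymosin, was the 1 called of 20 actin and motility genes, at 1821, 1453, 2020 and 1564 CPM and then 4756, 3629, 4673 and 3634 CPM (1.28 ± 0.14, adjusted p = 3.02e-05). With the mouse block 4 of the 20 rose and 1 fell. Timp3, an inhibitor of metalloproteinases, rose by 1.14 ± 0.25 (adjusted p = 0.0047), with 0.0522 at 5000 UMIs a cell and 0.0541 with limma on cell means. Plaur, the urokinase receptor, had 213, 218, 391.5 and 191 CPM on day 0 and 111, 97.0, 113 and 40.2 CPM on day 3 (-1.48 ± 0.32, adjusted p = 0.0049). Of 18 matrix receptors 1, Itgb4, was called, and 6 rose with the block. Of 14 basement membrane genes none was called by edgeR, and 0 had an unadjusted p under 0.05. DESeq2 called 0 of them, limma 1 and the mouse block 2. Col1a1, which encodes collagen I, went from 0 to 1.43 CPM to 0.311 to 10.5 CPM (adjusted p = 0.0484), with the days overlapping, and lost the call without mouse 2 (0.274), with limma on cell means (0.255), without the low-count filter (0.0531), with total counts alone (0.0536), in the fit of all 6 groups (0.0604) and without the 4T1 cluster (0.0592). It could not be tested without the fibroblast-like cells, of which 16 were kept on day 3 and 0 on day 0.

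Signalling lists held called genes in both directions. Inhba, which encodes the subunit of activin A, had 252, 360, 568 and 335 CPM on day 0 and 555, 697, 983 and 1030 CPM on day 3 (1.11 ± 0.35, adjusted p = 0.0394), higher in all 4 mice. Inhbb, the other activin subunit, changed by -1.16 ± 0.23 (adjusted p = 0.00286). Fst, the secreted inhibitor of activin, rose by 1.49 ± 0.33 (adjusted p = 0.00591) and the TGF-beta target Skil fell by 0.76 ± 0.17 (adjusted p = 0.00595). Leaving out 1 mouse ended the call for Inhba (mice 2, 3 and 4, up to 0.158), Fst (mouse 3, 0.0525) and Skil (mouse 2, 0.0822). Inhba was also not called without 4T1 and non-epithelial clusters (0.0678), at 5000 UMIs a cell (0.0816) or when scaling by total counts (0.0834). Of 18 genes of the TGF-beta and activin list, 2 rose and 3 fell, and with the mouse block 5 rose and 6 fell.

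Of 11 targets of YAP 2 fell, F3, tissue factor, by 1.79 ± 0.36 (adjusted p = 0.00283) and Ctgf by 1.60 ± 0.37 (adjusted p = 0.00747), which lost the call without mouse 1 or 2 (up to 0.0633). Ctgf was called with the mouse block (-1.67, adjusted p = 0.000411), and changed by -2.40 in 4T1 cells. With the mouse block 5 of the 11 fell. In the Notch list 3 of 10 fell, and with the mouse block 3 rose and 4 fell. Notch2, a receptor (chr3:98013527-98150361), had 51.4, 46.9, 53 and 44.2 CPM on day 0 and 23.1, 28.4, 25.0 and 24.1 CPM on day 3 (-0.96 ± 0.13, adjusted p = 0.000206), and 4T1 cells changed by -1.0. Its targets Hes1 (-0.94, adjusted p = 0.00849) and Hey1 (-2.26, adjusted p = 0.00731) were also called, and lost the call without mouse 1 or 2 for Hes1 (up to 0.055) and without mouse 2 for Hey1 (0.058). In 4T1 cells Hes1 changed by -1.52. Of 17 FGF receptor and ERK feedback genes, Etv4 rose and Dusp6 fell, and with the mouse block 2 rose and 6 fell.

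Wnt10a, a ligand of Wnt signalling (chr1:74791516-74804179), had 15.1, 29.6, 42.7 and 18.9 CPM on day 0 and 87.6, 290.4, 225 and 104 CPM on day 3 (2.75 ± 0.53, adjusted p = 0.00224), with all 4 mice higher and 4T1 cells at 11.5 and 11.6 CPM. Wnt7a rose and Znrf3 fell among the other members of the list of 14, of which 4 rose and 1 fell with the mouse block. Of surface markers, Cd55, which protects from complement, rose by 2.39 ± 0.47 (adjusted p = 0.00279, and 0.0617 at 5000 UMIs a cell) and the receptor Kit fell by 2.04 ± 0.41 (adjusted p = 0.00317), with the Kit call lost without mouse 2 (0.0636). Jam2, a junctional adhesion molecule (chr16:84774123-84825928), had 3.59, 3.29, 3.72 and 2.57 CPM on day 0 and 85.3, 39.5, 65.4 and 4.02 CPM on day 3 (3.87 ± 0.88, adjusted p = 0.00649). Mouse 4 stayed near its day 0 level, and the call was lost without mouse 1 or 2 (up to 0.0751). The milk gene Csn3 had 15.9, 31.8, 29.5 and 4.29 CPM on day 0 and 0 to 1.68 CPM on day 3 (-3.95 ± 0.90, adjusted p = 0.00661), and lost the call without mouse 2 or 3 (up to 0.086). Of the called genes named without values, Phgdh and Eno1 were called in every fit that left out 1 mouse, and Hk1, Pkm, Vegfa, Itgb4, Etv4, Dusp6, Wnt7a and Znrf3 were not.

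Genes near 0 on day 0 gave the largest fitted changes. Prl2c2, a proliferin of the prolactin family, had 1 UMI over all day 0 sums and 3521 on day 3, a ratio of 604 (95% counting interval 108 to 23860, counting error only). Its sums were 0, 0, 0 and 0.429 CPM and then 14.9, 57.7, 27.1 and 11.8 CPM, and Matrigel had 5 UMIs and then 269. Prl2c3 had 0 UMIs on day 0 and 2322 on day 3, at least 132.7-fold higher against a floor of 3 UMIs over the group, and in 4T1 cells it had 18 UMIs and then 1. The 2 proliferins are near-identical copies, so the split of reads between them is uncertain. Sncg, gamma-synuclein, had 8.74, 2.20, 1.15 and 4.29 CPM on day 0 and 111, 80.1, 59.9 and 86.7 CPM on day 3 (4.21 ± 0.71, adjusted p = 0.000891). Ptcra fell by 6.14 ± 1.26 (adjusted p = 0.00344), from 5.75, 3.57, 2.29 and 131.7 CPM to 0.232 to 0.74 CPM. Without mouse 4 the change of Ptcra was -3.01, called as before.

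Matrigel cultures of the same mice and pools were compared to ask which changes depended on the matrix. There 2423 genes were higher and 2251 lower on day 3, 37.6% of genes. Of the collagen calls 88.0% were also called in Matrigel, which is 1894 genes, and 1893 of them had the same sign, while 40.5% of the Matrigel calls were also called in collagen. The 2 matrices share pools and mice, so the changes are not independent. The test of the difference between the matrices called 0 genes without the block (lowest adjusted p = 0.0627, with 1266 at an unadjusted p under 0.05), and DESeq2 called 46 higher and 82 lower. With the mouse block it called 287 higher (2.31%) and 308 lower (2.48%), 4.79% of genes. Effects that were called in 1 matrix and not in the other are therefore given with the blocked difference, which is the change in collagen minus the change in Matrigel.

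Several interferon and antigen genes had more negative changes in collagen than in Matrigel. With the block, 7 of 21 interferon genes and 7 of 12 antigen presentation genes had a negative difference, and none a positive one. Cxcl10, however, also fell in Matrigel (-2.52, adjusted p = 0.00505), and its blocked difference was -0.84 ± 0.74 (adjusted p = 0.533). Without 4T1 and non-epithelial clusters, Rsad2 changed by -3.38 in Matrigel (adjusted p = 0.00538) and by -3.13 in collagen (adjusted p = 0.0112). Bst2 was at 193, 115, 124 and 66.7 CPM on day 0 and 196, 126, 124 and 73.7 CPM on day 3 in Matrigel, a log2 change of 0.04 (adjusted p = 0.931), and the difference was -1.39 ± 0.23 (adjusted p = 0.00877). Psmb8 went from 90.0, 61.2, 77.1 and 53.4 CPM to 410, 237, 240 and 215 CPM in Matrigel, so the difference was -1.46 ± 0.16 (adjusted p = 0.00249). The differences were -1.56 ± 0.23 for Psmb9 and -1.16 ± 0.14 for Tap2 (adjusted p = 0.00731 and 0.00371). On day 0 the collagen sums of Bst2, Psmb8 and Tap2 lay above all 4 Matrigel sums.

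Antioxidant and immediate early genes had the more positive changes in collagen. Of 15 NRF2 genes 8, and of 21 immediate early genes 8, had a positive blocked difference, and none a negative one. Hmox1, heme oxygenase, went from 688, 952, 1039 and 1487 CPM to 68.8, 306, 155 and 107 CPM in Matrigel, while in collagen it was at 111.7 to 147 CPM and then 67.2 to 154 CPM. The difference was 2.28 ± 0.48 (adjusted p = 0.0212). Myc, Dusp1 and Plaur had differences of 0.80 ± 0.19, 1.64 ± 0.34 and 1.45 ± 0.32 (adjusted p = 0.0329, 0.0201 and 0.024). On day 0 all 4 Matrigel sums of Dusp1 and Myc lay above all 4 collagen sums. Fn1, fibronectin, was not called in collagen (0.59, adjusted p = 0.316) and fell in Matrigel, and the difference was 1.74 ± 0.39 (adjusted p = 0.0251). Actg2 had a difference of 6.37 ± 0.94 (adjusted p = 0.00731), Jam2 3.02 ± 0.59 (adjusted p = 0.0157) and Ctgf 1.59 ± 0.42 (adjusted p = 0.0454). Fdps, Mvk and Scd1 rose in both matrices, and the differences were -0.90 ± 0.23, -1.78 ± 0.29 and -1.81 ± 0.42 (adjusted p = 0.041, 0.00877 and 0.0303). None of these differences was called without the block, and Ctgf was not called with the block and without the 4T1 and non-epithelial clusters (0.0535).

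**Figure D5:**
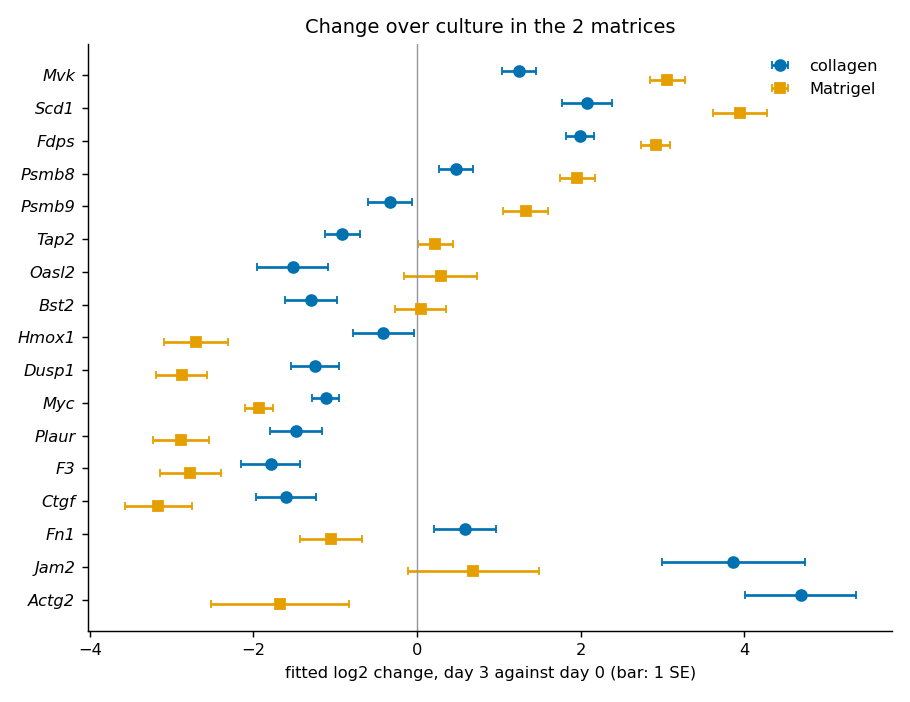
Fitted log2 change from day 0 to day 3 (horizontal axis) of 17 genes in collagen (blue circles) and Matrigel (orange squares), without the block, with bars of 1 SE over 4 mice. Collagen lies to the left of Matrigel for the lipid, interferon and antigen genes in the upper part (0.47 against 1.96 for Psmb8) and to the right for the others (-0.41 against -2.70 for Hmox1).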

How the data were processed

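Single cells were captured with the 10x 3' v2 kit in 3 pools, 1 per day, and tagged by mouse and matrix with MULTI-seq, per the labels. The authors deposited raw UMI counts per gene and cell, with the mitochondrial fraction per cell. Cell Ranger 3.0.2, Scanpy 1.4.4 and GRCm38 are named in the submitters' processing notes, and the cell and gene filters are not given in the sources used here. Members and gene lists were chosen with earlier results of these data known.

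Cells were kept at 5000 or more UMIs and at least 1 Epcam UMI, and raw counts were summed per mouse and day (at least 20 cells a sum). No doublet caller was run. edgeR 4.0.16 (R 4.3.3, TMM scaling, quasi-likelihood test) was fitted on the 16 sums of collagen and Matrigel on days 0 and 3, with Benjamini-Hochberg adjustment over all genes tested at a threshold of 0.05. The replicates are 4 mice. The mouse block is the alternative for pairs. Same-numbered sums come from the same animal by the labels, and their deviations from the group means correlated at 0.261 to 0.745 over 24 pairs, with all 16 sums closest to their own mouse. Replicates of a group differed by more than sampling noise. limma 3.58.1, DESeq2 1.42.0, total-count scaling, no count filter, thinning to 5000 UMIs, and leaving out mice or clusters were also run. In simulated data of 12215 genes, 100 genes were changed 2-fold and 100 were changed 4-fold in the collagen comparison. Of these, 45% and 80% were recovered, and 0.0499% of the unchanged genes were called. The simulation had no mouse effect and far fewer changed genes than were called in the data. Its rates are therefore not those of the calls reported here. Clusters (scanpy 1.11.5) were named from fixed markers. The text gives a selection of the genes named by a rule, which took 276 genes. Among called genes with a level of 20 CPM or more and 4 mice alike in sign, it took the 12 largest log2 changes in each direction. It then took up to 4 members of each list by p, and 12 state markers. In all, 80 genes were followed through the alternatives. The state markers Trp63, Snai2, Zeb1, Twist1 and Krt18 are not given in the text. Fasn, Cdkn2a and Acta2 were added after their values were seen. Intervals cover counting error only.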

Additional observations from a re-analysis of the deposited data

Results flagged for a closer look

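A group of 4 sums was marked when its highest or lowest sum stood apart from the other 3 by more of the range than Dixon's critical value for 4 values allows. Over 160 groups of the named genes, 15 were marked, and chance marks about 5% of groups.

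On day 0 in collagen, mouse 1 stood highest for Ifit3 (22.9 CPM), Rsad2 (65.1 CPM) and Psmb9 (61.4 CPM). Mouse 4 stood lowest on day 0 for Tap2 (39.9 CPM), Maff (42.5 CPM) and Actg2 (0 CPM), and highest for Mki67 (128.7 CPM), S100a6 (4848 CPM), Prl2c2 (0.429 CPM, 1 UMI) and Ptcra (131.7 CPM). Mouse 3 stood highest on day 0 for Cdkn1a (509.8 CPM) and Plaur (391.5 CPM). On day 3, mouse 2 stood highest for Rsad2 (6.77 CPM) and Krt14 (1803 CPM), and mouse 4 for Cdh1 (79.2 CPM). Mouse 4 had the fewest kept cells on both days, 104 and 113, and the lowest total of UMIs on day 0, 2171559. Of its 104 kept cells of day 0, 9 lay in the 4T1 cluster. Without 4T1 and non-epithelial clusters mouse 4 was lowest, not highest, for S100a6 on day 0. The 4 sums were then 3925, 3829, 4311 and 3055 CPM.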

How the results depend on the processing

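The collagen comparison was recomputed under 15 alternatives, and 2 more were added after the data were seen (leaving out 4T1 and non-epithelial clusters together, without and with the replicate block). Higher and lower calls numbered 2529 and 2211 with the replicate block, 725 and 1825 with total counts alone, and 2404 and 2583 with the block and without those clusters. Lower calls numbered 567 with limma on cell means and 617 after thinning. Leaving out 1 mouse gave 496 to 1375 higher and 313 to 1409 lower calls. For the difference between matrices, the block gave 287 higher and 308 lower, DESeq2 46 and 82, and the block without those clusters 277 and 383. Fitting all 6 groups gave 1 lower call, and leaving out the 4T1 cluster, alone or with the non-epithelial clusters, gave 2. The other alternatives gave 0. Of 69 called genes followed, 69 were called again with the block, 59 with limma and 50 without mouse 2. None of these called genes reversed. Vim, which was not called, reversed to 0.93 with limma, 0.305 without mouse 4 (-0.834 to 0.305 when each mouse was left out), 1.729 without the 4T1 cluster, 1.264 after thinning, 2.111 without both kinds of cluster and 2.029 with the block added, and Psmb9 to 0.008 with limma. The change in the share of cells with a Top2a UMI was 0.695 percentage points without thinning. At a pseudocount of 20 CPM, 335 called genes had a 4T1 change of the same sign and at least 0.5 of its size. The causes were not tested.

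Depth limits genes near 0 on day 0, where the group total was 16524325 UMIs, and the shares of cells. For the shares, 4 mice a side cannot give an unpaired exact permutation p below 0.0286, or a paired sign-flip p below 0.125.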
